A study of Mus musculus with 2 samples.

Results

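Transcripts of the leukaemia inhibitory factor (LIF) receptor and its STAT3 pathway were measured in mouse embryonic stem cells whose labels give the genotype as AGO1&AGO2 double KO, a loss of both genes. The 10 genes described here were chosen by name. They are the ligand gene Lif, the receptor genes Lifr and Il6st, the kinase genes Jak1, Jak2 and Tyk2, the transcription factor gene Stat3, and the feedback and effector genes Socs3, Pim1 and Ptpn11. All 10 were found among the 47643 gene IDs of the count files. The cells were of the E14 line, with a 129/Ola background and a blastocyst origin per the labels, and the series held 2 polyA RNA libraries of this 1 genotype, called replicate 1 and replicate 2. They were grown in DMEM with 15% serum, 100 U/mL LIF, beta-mercaptoethanol and antibiotics on plates coated with 0.2% gelatine. Whether these are separate cultures, or 1 or more clones, is not stated in the labels, and the spread between them may be technical. Neither unmodified cells nor cells grown without LIF were analysed here, and nothing below measures an effect of the knockout or of LIF.

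LIF binds its receptor LIFR, which pairs with gp130, the shared receptor chain encoded by Il6st. Janus kinases (JAKs) held on the tails of both chains then phosphorylate tyrosines to which STAT3 docks, and phosphorylated STAT3 moves to the nucleus and activates transcription. In mouse embryonic stem cells this signal supports self-renewal, and LIF is added to the medium for that reason. SOCS3, itself made from a STAT3 target gene, binds gp130 and the kinases and dampens the signal, while the phosphatase SHP2, encoded by Ptpn11, links gp130 to the ERK pathway.

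Argonaute proteins, the products of the genes named in the genotype, carry microRNAs that recognise sites in the 3′ UTRs of messenger RNAs through their seed, bases 2 to 8. Seed matches to microRNAs of embryonic stem cells and to let-7 were therefore looked up in the 3′ UTRs of the 10 genes. The mature sequences below, from RefSeq (GRCm38.p6), are shown because their seeds, in capitals, define those sites. The first 3 share 1 seed, which miR-302b and miR-302d have too.
mmu-miR-291a-3p: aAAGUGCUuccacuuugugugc
mmu-miR-294-3p: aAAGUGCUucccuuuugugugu
mmu-miR-295-3p: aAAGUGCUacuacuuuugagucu
mmu-miR-17-5p: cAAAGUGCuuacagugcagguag
mmu-let-7a-5p: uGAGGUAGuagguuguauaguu

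The motif AGCACTT, which pairs with the seed of the first 3, was found in the 3′ UTRs of 2 of the 10 genes, Lif and Il6st. It lay at chr11:4271484-4271490 (plus strand) in Lif and at chr13:112505290-112505296 (plus strand) in Il6st, in GRCm38. CTACCTC, which pairs with the let-7 seed, was found in Tyk2 (chr9:21104149-21104155, minus strand) and Stat3 (chr11:100888715-100888721, minus strand). The 4 sites are shown with their flanks, with the matched bases in capitals.
Lif: ctctgtcactctctaAGCACTTtacc
Il6st: gagactggttgaggaAGCACTTtatc
Tyk2: ggatggtcaggctttCTACCTCatag
Stat3: tgacctcggagtgtgCTACCTCcccc

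Such matches are common in 3′ UTRs. Of 21021 protein-coding genes with an annotated 3′ UTR, 14.7% held AGCACTT and 9.02% held CTACCTC in their longest 3′ UTR. Among the 10393 genes whose 3′ UTR was at least as long as the shortest of the 10 (980 bases, in Tyk2), the shares were 25.6% and 15.1%. GCACTTT, which pairs with the seed of miR-17 and overlaps AGCACTT, was found in 5 of the 10 genes (Il6st, Jak1, Lif, Ptpn11 and Stat3). The share was 20.4% among the genes with a 3′ UTR of at least 980 bases. The median 3′ UTR of the 10 was 2327 bases, so these shares are not matched to them in length and no excess is read from them. Only the sense strand of the 3′ UTR was searched. A match is a description of the sequence and not evidence of binding in these cells.

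The libraries held 34798975 (replicate 1) and 29789560 (replicate 2) gene counts, and the 10 genes took 0.0913% and 0.0927% of them. CPM is the count of a gene relative to the total of its library. TPM is the count divided by exon length before that scaling, so that genes can be compared with each other. Values are given as mean ± SD over the libraries (n = 2). Pluripotency markers were high in both libraries, with Pou5f1 at 1687 ± 85.6 TPM and a list median of 688 TPM. Of 11 fibroblast and feeder markers, 3 reached 1 CPM in both libraries, Col3a1, Lum and Postn had no count, and the list summed to 26.8 TPM in replicate 1 and 25.3 TPM in replicate 2, mostly from Thy1. The sums were 5.11 and 3.87 TPM for 8 primitive endoderm markers, with Afp at no count. They were 157 and 134 TPM for 8 trophoblast markers, mostly from Krt18, with Tpbpa at no count, and 34.2 and 28.5 TPM for 8 primed and germ layer markers, mostly from Otx2, with Cer1 at no count.

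The libraries are of bulk RNA, so fewer cells with a transcript and less transcript per cell cannot be told apart. All 10 genes were expressed, here meaning at least 1 CPM in both libraries, and all 10 also passed 5 CPM. Their levels spanned 13.0-fold from Socs3 to Lif in TPM, with a median of 30.5 TPM, against 17.4 TPM for the 12530 expressed protein-coding genes. In level, 8 of the 10 lay above the median of those genes, and Jak2 and Lif lay below it.

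**Figure D1:**
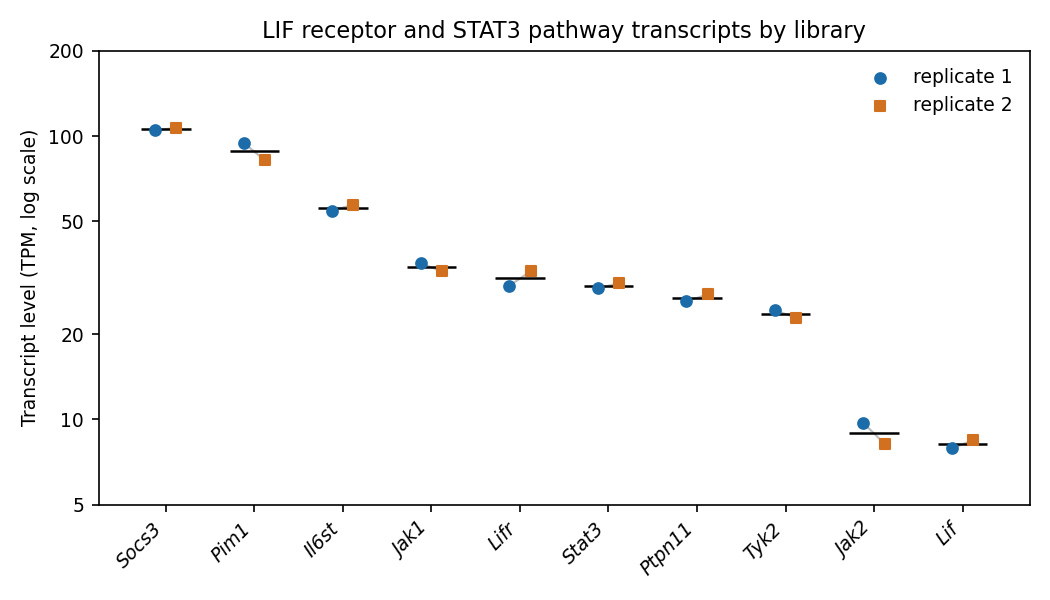
Level of each of the 10 genes in TPM on a log axis, with circles for replicate 1, squares for replicate 2 and a black bar for the mean of both. Socs3 and Pim1 lie highest, at 105.8 and 88.3 TPM on average, and Jak2 and Lif lowest, at 8.94 and 8.17 TPM.

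Transcripts of both receptor chains were abundant and those of the ligand were present at a lower level. Il6st (ENSMUSG00000021756; GRCm38 chromosome 13, 112464070 to 112510086, plus strand) had 7628 counts in replicate 1 and 6880 in replicate 2, or 54.6 and 57.2 TPM. Lifr (ENSMUSG00000054263; chromosome 15, 7090614 to 7197489, plus strand) had 4017 and 3884 counts, or 29.6 and 33.3 TPM. The gp130 transcript was thus the more abundant of the pair in each library, by 1.84-fold in replicate 1 and 1.72-fold in replicate 2. Lif (ENSMUSG00000034394; chromosome 11, 4257557 to 4272514, plus strand) had 432 and 398 counts, or 7.89 and 8.45 TPM, so the cells carried transcripts of the cytokine that was also in their medium.

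The other ligands and receptors that use gp130 were mostly low. Of 8 listed receptor genes, Il6st and Lifr together held 84.5% and 85.8% of the summed TPM in replicates 1 and 2. The genes Il27ra (4.37 ± 0.762 TPM), Il11ra1 (3.84 ± 0.0907 TPM), Cntfr (3.14 ± 0.681 TPM) and Il6ra (3.07 ± 0.323 TPM), which encode receptors for interleukin 27, interleukin 11, ciliary neurotrophic factor and interleukin 6, followed. Of the Il11ra1 sequence, 46.3% of 50-base stretches recur in other genes, so its value is uncertain. Osmr, the receptor chain through which oncostatin M signals in mouse, had 3 and 5 counts, or 0.0289 ± 0.0130 TPM.

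Among 8 ligand genes Lif was not the most abundant. Osm, which encodes oncostatin M and lies near Lif on chromosome 11 (4236420 to 4241026, plus strand), had 724 and 630 counts, or 25.3 and 25.6 TPM. Lif followed at 8.17 ± 0.397 TPM and Ctf1, which encodes cardiotrophin 1, at 6.65 ± 0.476 TPM. The order of Lif and Ctf1 depended on the length used: with the longest transcript in place of all exons, Ctf1 stood at 7.06 TPM and Lif at 6.94 TPM. Cntf (1.64 ± 0.50 TPM), Clcf1 (0.762 ± 0.0141 TPM) and Il11 (0.346 ± 0.0502 TPM) were low. For Cntf, 78.0% of 50-base stretches recur in Zfp91, whose exons overlap it. Il6 had 1 count in each library and Il27 none, below the floor of 3 counts, which equals 0.0862 CPM in replicate 1 and 0.101 CPM in replicate 2.

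Of the 3 receptor kinase genes, Jak1 was the most abundant and Jak2 the least. Jak1 (ENSMUSG00000028530; chromosome 4, 101152367 to 101265282, minus strand), the main kinase of gp130 signalling, had 3233 counts in replicate 1 and 2604 in replicate 2, or 35.5 and 33.3 TPM. Tyk2 (ENSMUSG00000032175; chromosome 9, 21104068 to 21131243, minus strand) had 2096 counts in replicate 1 and 1697 in replicate 2, or 24.3 and 22.8 TPM. Jak2 (ENSMUSG00000024789; chromosome 19, 29251828 to 29313080, plus strand) had 614 and 446 counts, or 9.70 and 8.19 TPM. Exons of Jak1 and Tyk2 overlap those of Raver2 and 1700084C06Rik, respectively, on the other strand, and 7.52% of the 50-base stretches of Tyk2 recur in other genes. The values of the 3 kinases did not overlap between genes. Per exon length, Jak1 exceeded Jak2 by 3.66-fold in replicate 1 and 4.06-fold in replicate 2, and Tyk2 by 1.47-fold and 1.46-fold. The gaps were larger with the median length of protein-coding transcripts (45.2 TPM for Jak1, 16.7 TPM for Tyk2 and 4.87 TPM for Jak2).

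Jak3, the fourth member of the family, is best known from lymphocytes, where it pairs with the receptor chain encoded by Il2rg. Per exon length it was close to Jak1, at 32.1 and 32.0 TPM (2161 and 1854 counts). It took 32.4% ± 1.16 of the summed TPM of the family, against 34.8% ± 0.304 for Jak1, 23.8% ± 0.121 for Tyk2 and 9.03% ± 0.738 for Jak2. Exons of Jak3 overlap those of Insl3 on the same strand, and 7.21% of its 50-base stretches recur in other genes. The order Jak1, Jak3, Tyk2, Jak2 was the same in CPM and with the other transcript lengths. With the median length of protein-coding transcripts the share of Jak1 reached 51.7%, and Jak3 stood at 20.7 TPM against 45.2 TPM for Jak1. In CPM, Jak3 stood at 62.2 and Jak1 at 90.2. Il2rg itself stood at 7.54 ± 0.437 TPM, with 27.5% of its 50-base stretches found in other genes.

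Stat3 (ENSMUSG00000004040; chromosome 11, 100885098 to 100939540, minus strand) had 3474 counts in replicate 1 and 3123 in replicate 2, or 29.0 and 30.3 TPM, and its values varied little between the libraries (29.6 ± 0.927 TPM). Its exons overlap those of Stat5a on the other strand. All 7 STAT genes were expressed. Stat6, the mediator of interleukin 4 signals, was higher per length at 57.6 ± 3.45 TPM, although Stat3 had more counts (102 ± 3.54 CPM against 91.9 CPM for Stat6). Exons of Stat6 overlap those of Nab2 on the other strand. The interferon mediator Stat2 stood at 20.5 ± 4.89 TPM. Below it were Stat4 (6.11 ± 0.519 TPM), Stat5a (4.28 ± 0.798 TPM) and Stat5b (4.05 ± 0.747 TPM). Stat3 therefore took 23.1% ± 2.38 of the summed TPM of its family (21.5% in replicate 1, 24.8% in replicate 2), but 36.3% of its counts when these were not scaled to length. The 50-base stretches of Stat4 and Stat5b were found in other genes at 21.7% and 11.0%.

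**Figure D2:**
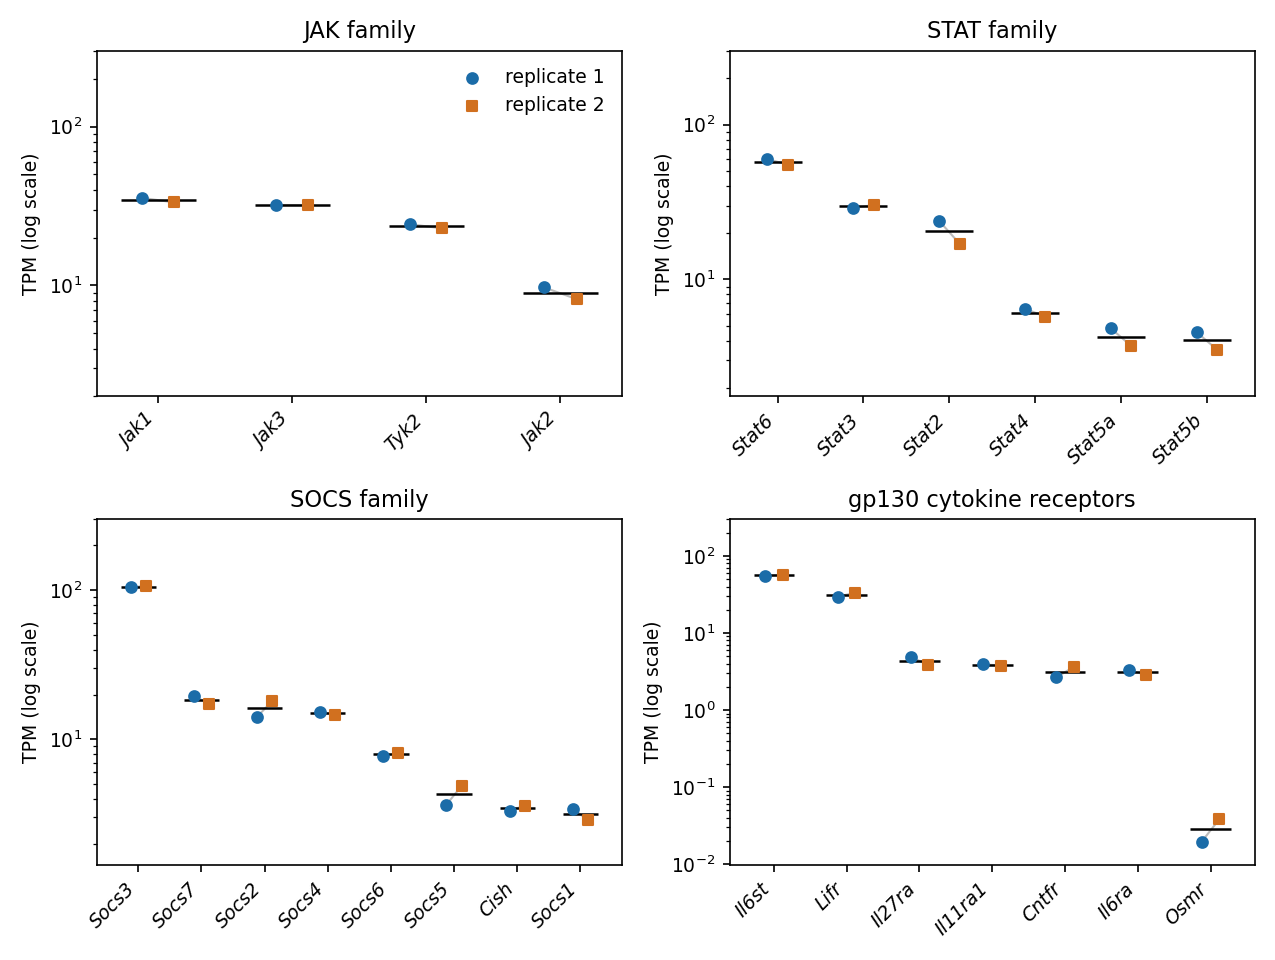
Levels in TPM, on log axes that differ between panels, of the genes reported by name from the JAK, STAT and SOCS families and from the receptors that use gp130, with circles for replicate 1, squares for replicate 2 and a black bar for the mean. Per exon length, Jak1 and Jak3 lie side by side and Stat6 lies above Stat3. Socs3 holds 60.8% of its family per exon length (30.3% with the median length of protein-coding transcripts, where Socs2 is higher). Osmr lies at the bottom at 0.0289 TPM.

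The feedback genes Socs3 and Pim1 were the most abundant of the 10 per exon length, although Il6st stood above both when the median length of protein-coding transcripts was used (117 TPM). Socs3 (ENSMUSG00000053113; chromosome 11, 117966079 to 117970047, minus strand) had 3810 counts in replicate 1 and 3348 in replicate 2, or 104.7 and 106.9 TPM, and lay at percentile 90.5 of expressed protein-coding genes. Per exon length it was 3.61-fold and 3.53-fold as high as Stat3 in replicates 1 and 2. The gap was smaller with the median length of protein-coding transcripts (58.0 TPM for Socs3, 36.7 TPM for Stat3) and in CPM (111 and 102). Within the SOCS family of receptor inhibitors, Socs3 took 60.8% ± 0.226 of the summed TPM per exon length. With the median length of protein-coding transcripts its share was 30.3%, and Socs2 (78.6 TPM) then stood above Socs3 (58.0 TPM). Per exon length, Socs7 (18.4 ± 1.56 TPM), Socs2 (16.1 ± 2.80 TPM) and Socs4 (15.0 ± 0.568 TPM) followed, then Socs6 (7.93 ± 0.311 TPM) and Socs5 (4.27 ± 0.878 TPM). Cish and Socs1 were the lowest at 3.46 ± 0.190 and 3.15 ± 0.371 TPM.

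Pim1 (ENSMUSG00000024014; chromosome 17, 29490753 to 29496112, plus strand), a STAT3 target that encodes a serine/threonine kinase, had 4005 and 2985 counts, or 94.6 and 82.0 TPM, lower in replicate 2. Its paralogue Pim3, also listed as a target of LIF in mouse embryonic stem cells, was higher at 256 ± 1.44 TPM. The difference was 2.71-fold in replicate 1 and 3.11-fold in replicate 2. With the median length of protein-coding transcripts the gap was smaller, with Pim3 at 124 TPM and Pim1 at 108 TPM. Pim2 stood at 19.0 ± 0.182 TPM. An antisense gene, Gm26885, overlaps exons of Pim1 and shares 8.78% of its 50-base stretches.

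Ptpn11 (ENSMUSG00000043733; chromosome 5, 121130533 to 121191397, minus strand) had 2460 counts in replicate 1 and 2238 in replicate 2, or 26.1 and 27.6 TPM. Of 9 listed PIAS and phosphatase genes, most of which restrain JAK and STAT signals, the PIAS gene Pias2 (139 ± 2.85 TPM), the phosphatase gene Ptpn2 (68.0 ± 2.60 TPM), Pias4 (44.0 ± 0.110 TPM) and Ptpn6 (38.8 ± 3.29 TPM) were the highest. Ptprc, the leukocyte phosphatase CD45, had 5 counts in each library. Of the 21 listed genes that carry the SHP2 signal to ERK and PI3K, all were expressed. Mapk3 (188 ± 20.3 TPM), the adaptor Gab1 (147 ± 12.8 TPM) and Grb2 and Map2k1 (both 100.1 TPM) were among the highest, and Gab2 was the lowest at 0.518 ± 0.0134 TPM.

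In order of mean TPM the 10 genes ran Socs3, Pim1, Il6st, Jak1, Lifr, Stat3, Ptpn11, Tyk2, Jak2 and Lif. The ranges of neighbours over the libraries did not overlap in 6 of 9 pairs. They overlapped for Jak1 and Lifr (33.3 TPM for both in replicate 2), for Lifr and Stat3, and for Jak2 and Lif. Jak1 and Lifr, and Jak2 and Lif, changed order between the libraries. Lifr was above Stat3 in both libraries (1.02-fold in replicate 1, 1.10-fold in replicate 2) but below it with the longest transcript (27.6 against 36.7 TPM). The order of these neighbours is therefore not settled. The steps from Pim1 to Il6st (1.58-fold), from Il6st to Jak1 (1.63-fold) and from Tyk2 to Jak2 (2.63-fold) were the largest. The length used moved several levels by over 1.5 times: with the median length of protein-coding transcripts Il6st stood at 117, Lifr at 52.6, Socs3 at 58.0, Ptpn11 at 17.5, Jak2 at 4.87 and Lif at 4.40 TPM, and Il6st and Pim1 then stood above Socs3. Tyk2 (26.3 TPM) stood above Ptpn11 (21.3 TPM) with the longest transcript, so ranges that do not overlap do not fix an order across lengths. With 2 values against 2, an exact test cannot give a p below 0.333, so no p is given for the order.

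The only comparison that the samples allow is of the libraries with each other. It gives the spread between these 2 libraries and does not cover the choice of length, which moved several levels by more. All 10 genes differed by less than 1.2-fold, which was also true of 91.3% of the 8358 genes with at least 1000 counts in total. A two-sided exact binomial test set replicate 2 against replicate 1 at library sizes scaled by TMM, adjusted by Benjamini-Hochberg over the 19078 genes that had at least 10 counts, at a threshold of 0.05. This test weighs the difference of these 2 libraries against counting error only and says nothing of conditions. It called 4 of the 10 genes, against 23.9% of all genes tested (11% higher and 12.9% lower in replicate 2) and 39.2% of those with at least 1000 counts, which 9 of the 10 have. The share among the 10 was therefore near that of genes with similar counts.

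Of the 4, Lifr and Il6st were higher in replicate 2, and Pim1 and Jak2 were lower. Lifr, at 115 CPM (95% exact Poisson interval 112 to 119) and 130.4 CPM (126 to 135), differed by a log2 ratio of 0.17 ± 0.03, with its counting SE (exact binomial test, adjusted p = 1.66e-06). Il6st, at 219 and 231 CPM, had a log2 ratio of 0.07 ± 0.02 (adjusted p = 0.0131). The values of Pim1, at 115 CPM (112 to 119) and 100.2 CPM (96.6 to 104), gave a log2 ratio of -0.20 ± 0.03 (adjusted p = 1.41e-07). Jak2, at 17.6 and 15.0 CPM, had a log2 ratio of -0.24 ± 0.09 (adjusted p = 0.0373). Intervals cover counting error only.

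The other 6 did not pass. Their log2 ratios were 0.10 for Lif (adjusted p = 0.554), 0.09 for Ptpn11 (0.138), 0.07 for Stat3 (0.166), 0.04 for Socs3 (0.539), -0.08 for Tyk2 (0.219) and -0.09 for Jak1 (0.0706). The median over the 10 was 0.05, beside -0.01 over all genes tested. edgeR's exact test, which adds the spread between the libraries (a common biological coefficient of variation of 9.99%), called 0 of the 10, and 0 had an unadjusted p below 0.05, the smallest being 0.159 for Pim1. That test called 0.456% of all genes. When a trend of the ratios on GC content and length was removed, the exact binomial test called 6 of the 10, of which 3 were called before. It then called 3990 of the 19078 genes tested. Il6st no longer passed (0.06, adjusted p = 0.0718), whereas Socs3 (0.13, 0.00234), Stat3 (0.12, 0.00640) and Ptpn11 (0.12, 0.0328) did, and Tyk2 turned to 0.02 without passing.

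**Figure D3:**
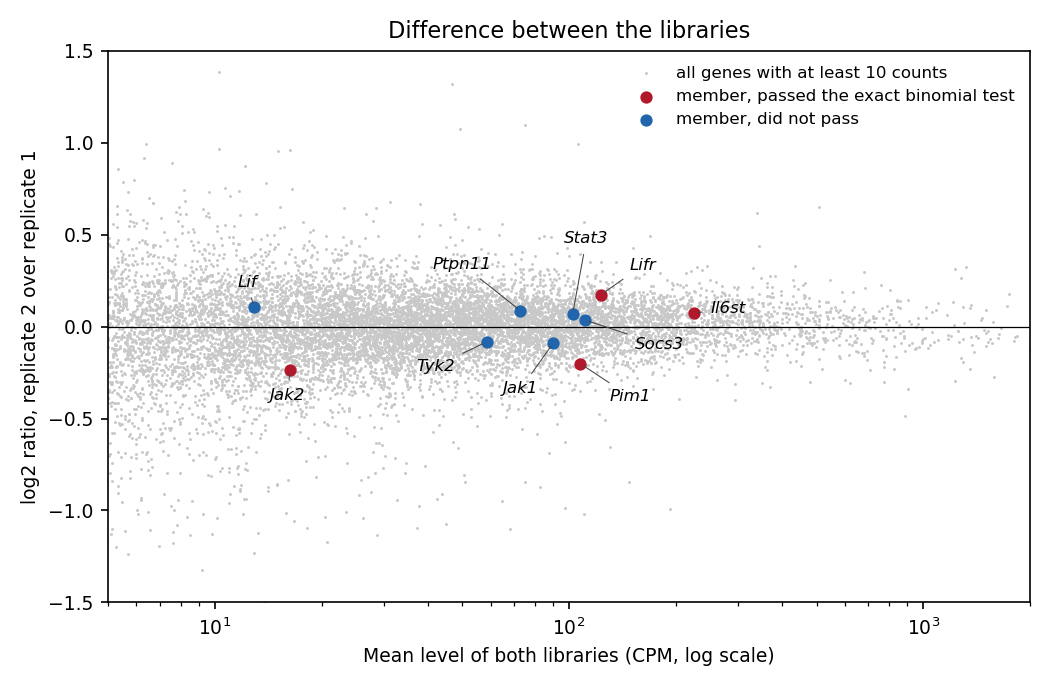
Log2 ratio of replicate 2 over replicate 1 against the mean level in CPM (log axis; genes outside the plotted range are not drawn), with all genes in grey and the 10 genes in red where they passed the exact binomial test and in blue where they did not. All 10 lie inside the cloud of other genes, from -0.24 for Jak2 to 0.17 for Lifr.

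Other genes of the pathway also differed between the libraries. Their counts stand beside 23.9% of all genes called (11% higher and 12.9% lower in replicate 2) and 39.2% of those with at least 1000 counts, and nothing particular to a list is read from them. By the exact binomial test, 4 of 7 STAT genes were lower in replicate 2 and none was higher. Stat2 had the largest difference, with 1787 and 1093 counts and a log2 ratio of -0.49 ± 0.06 (adjusted p = 4.40e-17), and Stat5a (-0.38), Stat5b (-0.37) and Stat6 (-0.12) were the others. Of 8 SOCS genes, Socs2 (0.36) and Socs5 (0.43) were higher and Socs7 (-0.17) was lower, and Socs3 lay between them. Of 9 PIAS and phosphatase genes 1 was higher and 3 were lower, and of the 21 genes of the SHP2 arm 4 were higher and 2 lower, among them Gab1 (0.18) and Mapk3 (-0.22). None of the 6 tested ligand genes was called. edgeR's exact test called 0 genes in each of these lists, with an unadjusted p below 0.05 for 1 STAT and 1 SOCS gene.

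Genes listed as targets of LIF and STAT3 in mouse embryonic stem cells were also examined. Nanog was on the list of pluripotency markers too, and whether LIF or STAT3 set the level of any of these genes was not tested. The list held 17 such genes beside Socs3, Pim1 and Stat3 and had a median of 50.1 TPM. Nanog (661 ± 11.7 TPM), the survival gene Mcl1 (386 ± 18.0 TPM), Pim3 and the naive pluripotency factor gene Tfcp2l1 (199.9 ± 7.18 TPM) were the highest. The Krüppel-like factor genes Klf4 and Klf5, which act beside STAT3 in self-renewal, stood at 50.1 ± 4.47 and 42.3 ± 4.08 TPM, and Myc at 20.8 ± 4.24 TPM. The immediate early genes Ier2 (173 ± 5.11 TPM), Junb (44.5 ± 6.94 TPM) and Fos (20.2 ± 1.75 TPM) were all expressed. Pramel7 was the exception, with 23 and 11 counts or 0.666 ± 0.269 TPM.

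Of these 17 targets, the exact binomial test found 8 higher and 2 lower in replicate 2, and 7 were not called. Over all genes tested, 11% were called higher and 12.9% lower, and nothing particular to the targets is read from the counts. Among the 15 with at least 1000 counts 9 were called, beside the 39.2% of all genes with such counts. Gbx2, a homeobox gene downstream of STAT3, had the largest ratio, with 242 counts in replicate 1 and 406 in replicate 2, or 8.83 and 17.2 TPM. Its log2 ratio was 0.97 ± 0.12 (adjusted p = 2.61e-15 by the exact binomial test, but 0.0895 by the exact test of edgeR), and 42.2% of its 50-base stretches recur in an antisense gene, D130058E05Rik. Myc (0.42), Junb (0.32), Ccnd1 (0.30), Ier3 (0.28) and Klf5 (0.20) were higher too, by less, while Klf4 (-0.18) and Mcl1 (-0.09) were lower. Nanog (0.04) and Tfcp2l1 (0.08) passed with small ratios. Their median log2 ratio was 0.04, beside -0.01 over all genes tested. edgeR's exact test called 0 of the 17, and 2 had an unadjusted p below 0.05.

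**Figure D4:**
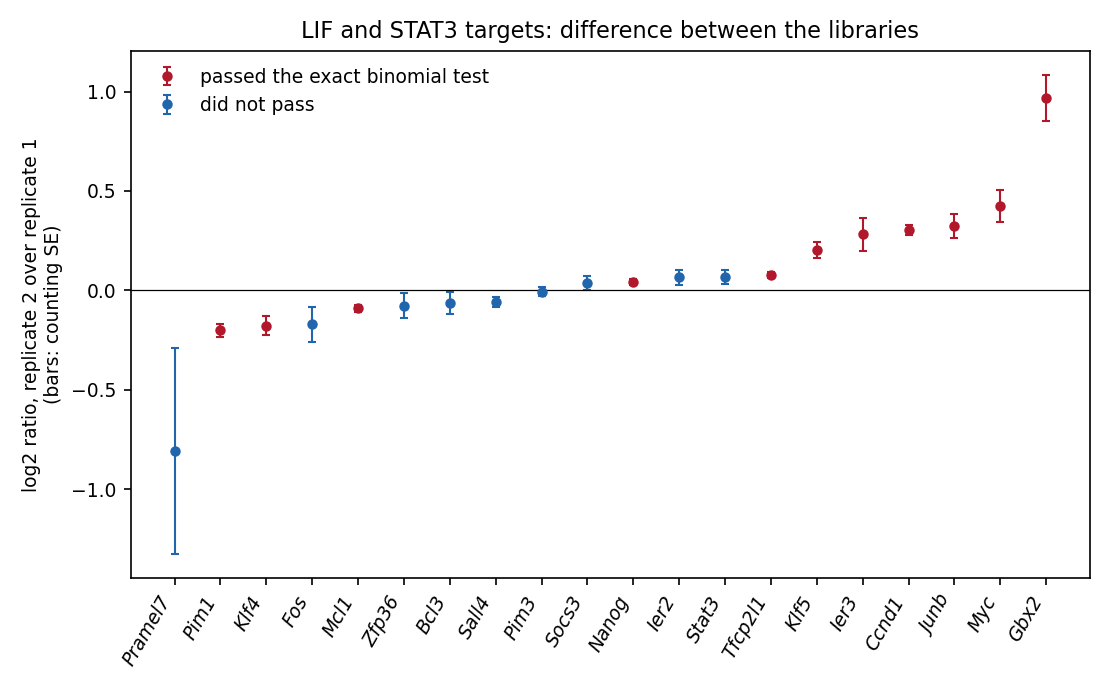
Log2 ratio of replicate 2 over replicate 1 for the 20 listed LIF and STAT3 target genes, in order of the ratio, with bars for the counting SE; red genes passed the exact binomial test and blue genes did not. Gbx2 stands highest at 0.97 and Pramel7, with few counts, lowest at -0.81 with a counting SE of 0.52. Socs3, Stat3 and Pim3 lie near 0.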

How the data were processed

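RNA was taken up in Trizol and 1 ug of total RNA entered TruSeq library preparation by a reverse-stranded protocol, per the labels' protocols. The authors deposited raw counts, as whole numbers of reads for each Ensembl gene. The submitters' processing notes name STAR 2.4.2a and mm10 (GRCm38). How reads were counted, with which strand setting and annotation, is not given in the sources used here, so overlapping and antisense genes may share reads.

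GENCODE M21, of the same build, named 47224 of 47643 IDs; the others took 0.116% and 0.124% of counts. It gave exon lengths for TPM, 3′ UTRs and the 50-base stretches of transcripts found in other genes on either strand. Log2 ratios used a pseudocount of 0.5 counts and TMM factors (edgeR 4.0.16). For edgeR's exact test the trended dispersion was estimated from both libraries taken as 1 group, so it holds the differences it is set against. Over genes with at least 10 counts, the spread between the libraries exceeded sampling noise (chi-square per degree of freedom 9.83), so both were kept as samples. Alternatives were DESeq2 1.42.0 size factors, totals without TMM, other count minimums, thresholds, pseudocounts and lengths, subtraction of a lowess fit (fraction 0.3) to GC content and length, and 1 library alone. The code of the tests was first tried on simulated counts with known differences; every reported value comes from the deposited counts.

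The genes, the 16 lists (all 138 symbols found) and the alternatives were chosen with earlier results of these data known. The rule named the 10 genes, their families, and of other lists the 4 highest, those without counts and those called by edgeR's exact test. A few listed genes are counted in their lists but not reported by name here. Other genes named from the lists were chosen after their values were seen, as were CPM in place of TPM for the order and the other lengths for the share of Socs3. The edgeR settings other than the trended dispersion with at least 10 counts were also chosen after the data were seen. So was the search of 3′ UTRs for seed matches: it began with the miR-290 family and let-7, and the miR-302 and miR-17 seeds and the comparison with longer 3′ UTRs were added once those matches were known. The counts among genes with at least 1000 counts and the statement on 1.2-fold were likewise added after the values were seen. A search of promoters for a STAT motif was also run and is not reported here, because these data do not bear on promoters and the Socs3 window lay inside the gene as GENCODE annotates it.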

Additional observations from a re-analysis of the deposited data

How the results depend on the processing

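With 1 group, no fit with a replicate as a block exists. No paired analysis was possible because the series held 1 group. The exact binomial test called 3 to 6 of the 10 genes and 3990 to 4579 genes in all under the other scalings, count minimums and the trend removal, against 4 and 4567; edgeR's exact test called 0 and 87. It called 0 of the 10 also with common dispersion, other minimums or totals without TMM, chosen after seeing the data. The call of Jak2 was lost with no count minimum (adjusted p = 0.0515 in the exact binomial test). The median level of 30.5 TPM became 41.0 TPM with the median length of protein-coding transcripts and 32.2 TPM with the longest transcript. Of the 10 genes 6 kept their place in the order with either length, and 4 in CPM. The share of Jak1 was 37.4%, 51.7% and 39.7% with the longest transcript, the median length and no length scaling, that of Stat3 27.5%, 29.8% and 36.3%, and that of Socs3 54.8%, 30.3% and 36.2%. With 1 library alone, the median level ran from 29.3 to 31.8 TPM, the places kept from 6 to 10, the share of Jak1 from 34.6 to 35% that of Stat3 from 21.5 to 24.8% and that of Socs3 from 60.6 to 60.9%. The test between the libraries cannot be run on 1 library. All 10 genes stayed expressed at 5 CPM and at 1 TPM. Lif had the fewest counts of the 10 genes (432 and 398), and its log2 ratio of 0.10 with a counting SE of 0.10 was not detectable as a difference at this depth.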

Other observations

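Of 12 listed genes of other receptors that signal through JAKs, 8 were expressed. Ifnar1, a chain of the type I interferon receptor, was the highest at 21.3 ± 1.66 TPM, below both Lifr and Il6st, followed by the interferon gamma receptor gene Ifngr2 (9.32 ± 0.270 TPM), Il2rg (7.54 ± 0.437 TPM) and the erythropoietin receptor gene Epor (5.11 ± 1.91 TPM). Epor had 162 and 81 counts and was lower in replicate 2 by a log2 ratio of -0.77 ± 0.20 (adjusted p = 5.92e-04 in the exact binomial test, 1.00 in edgeR's exact test). Ifnar1 (0.16, adjusted p = 0.0126) and Ifnar2 (0.46, adjusted p = 0.0354) were higher by the exact binomial test. Of the 11 tested genes of this list, 2 were called higher and 1 lower, beside 23.9% of all genes called. edgeR's exact test called 0 of them. Il4ra, which encodes the interleukin 4 receptor chain that activates STAT6, stood at 0.228 ± 0.0041 TPM beside the 57.6 TPM of Stat6.

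The ligand and receptor levels did not run in parallel. Per exon length, Osm transcripts were 3.12 times those of Lif, and in CPM Osm stood at 21.0 and Lif at 12.9. Osmr had 3 and 5 counts and Lifr 4017 and 3884.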
